A study of Homo sapiens with 16 samples.

Results

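The transcripts of 10 cyclins and cyclin-dependent kinases, among 58735 genes in the deposited table, were followed in SW620 cells with and without ATF4 knockdown during exposure to 5-fluorouracil (5-FU). They are the D cyclins CCND1 and CCND3 with their kinases CDK4 and CDK6, the E cyclins CCNE1 and CCNE2 with CDK2, and CCNA2, CCNB1 and CDK1. They were picked out of the table by gene symbol, and all 10 passed the filter on low counts that kept 17309 genes. SW620 is a human line of colorectal cancer cells, and 5-FU is a thymidylate synthase inhibitor that disturbs DNA and RNA synthesis. The study asked what the stress-response transcription factor ATF4 does in chemotherapy resistance of such cells, and measured polyadenylated RNA by sequencing. A scramble-hairpin control line and a line with an shATF4 hairpin were each left untreated (3 libraries each), or given 5 µM 5-FU for 24 h (3 libraries each) or 48 h (2 libraries each), 16 libraries in all. The 4 libraries titled as 48 h carry a treatment tag reading 24 h and were placed by title. All groups are SW620, a single hairpin line stands against a single control line, and the untreated libraries carry no time and serve as the reference at both times. The labels do not state whether replicates are separate cultures, and p-values therefore cover the spread between the sequenced libraries only, which may be technical.

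Cyclins are regulatory subunits that switch on cyclin-dependent kinases, and their amounts rise and fall through the cell cycle by timed transcription and timed destruction. D cyclins with CDK4 or CDK6 begin the phosphorylation of RB in G1, cyclin E with CDK2 completes it and starts DNA replication, cyclin A serves S and G2, and cyclin B with CDK1 drives mitosis. Inhibitors such as p21, encoded by CDKN1A, bind these complexes and halt the cycle, and Wnt signalling, often active in colorectal cancer, feeds into the D cyclins.

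Libraries held 14571611 to 17824188 counts, of which the 10 genes took 24432 to 31761 counts, or 0.155% to 0.19% of a library. ATF4 itself ran from 363.6 to 387.7 CPM (counts scaled to a common library size) in the untreated scramble libraries and from 168.6 to 178.7 in the untreated shATF4 libraries, and its log2 difference between the lines was -1.13 untreated, -1.34 at 24 h and -1.52 at 48 h. The epithelial genes EPCAM, KRT8, KRT18 and KRT19 were abundant, and of the intestinal genes VIL1 had 2995 to 8118 and CDX2 166 to 651 counts, while CDX1 and LGALS4 had at most 2 and 16. Of markers of other cell types COL3A1 was at 0 and PTPRC had at most 2 counts, while LUM had 326 to 774, COL1A1 106 to 360 and LYZ 41 to 541 counts. Some libraries differed from their own replicates, namely scramble untreated 2, with 1.42% of its counts on mitochondrial messenger RNA against 0.753% and 0.766%, and shATF4 24 h 3, with 0.0713% on 7SL RNA genes against 0.0224% and 0.0241%. The 7SL share of scramble untreated 1 was also above that of its replicates, at 0.0161% against 0.00368% and 0.0031%.

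The 10 transcripts did not move together. CCNE1, CCNE2, CCND3 and CDK2 rose under 5-FU in both lines and at both times, CCNB1 fell in both lines and at both times, and CDK6 and CDK4 fell mainly between 24 and 48 h, CDK6 reaching 3.06-fold lower in scramble and 3.63-fold lower in shATF4 cells at 48 h. In scramble cells 8 of 10 were called at 24 h (adjusted p under 0.05), 4 higher and 4 lower, where 44% of all 17309 tested genes were called, 21.8% higher and 22.2% lower. At 48 h 8 of 10 were called, again 4 in each direction, against 60.7% of all genes (30.6% higher, 30% lower). In shATF4 cells 7 of 10 were called at 24 h, 4 higher and 3 lower, against 44.4% of all genes (23.2% higher, 21.2% lower). At 48 h all 10 were called, 5 in each direction, against 58.3% (29.6% higher, 28.7% lower). The share called was above that background in each case, but with 10 genes chosen for their function nothing particular to them is read from it. The median log2 change over the 10 genes was -0.06, 0.05, 0.02 and 0.05 in these 4 comparisons, against -0.01, 0.03, 0.03 and 0.03 over all genes tested.

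**Figure D1:**
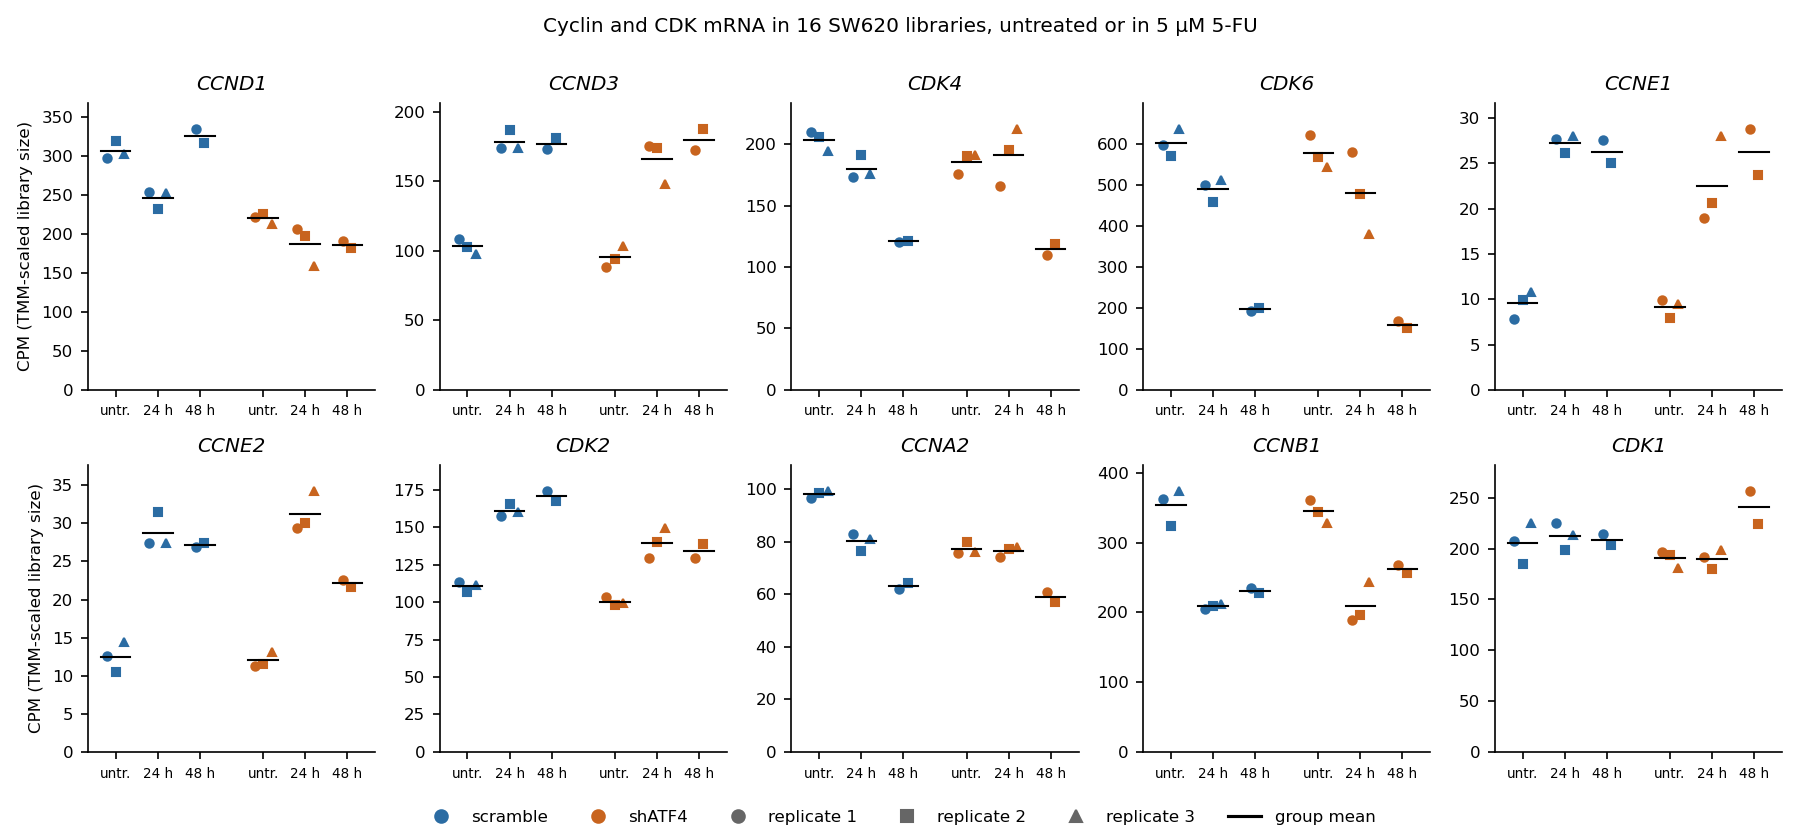
Level of each of the 10 transcripts in every library, in CPM of the TMM-scaled library size on an axis from 0. Points are libraries and short lines are group means, for scramble and shATF4 cells untreated and after 24 and 48 h of 5-FU. CCNE1, CCNE2, CCND3 and CDK2 sit higher in every treated group than in the untreated group of the same line, CCNB1 sits lower, and CDK6 drops at 48 h to between 150.3 and 200.2 CPM.

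Ranked per transcript length by the authors' FPKM values, cyclin B1 led and the E cyclins came last in all 6 groups. In untreated scramble cells CCNB1 stood at 135.8 ± 9.78 FPKM (SD, n = 3), followed by CDK4 (63.2 ± 2.33), CCND1 (62.5 ± 2.65), CDK1 (51.5 ± 5.02), CDK6 (48.3 ± 2.58), CCNA2 (34.5 ± 0.597), CDK2 (28 ± 0.767), CCND3 (17.5 ± 0.856), CCNE1 (3.69 ± 0.608) and CCNE2 (2.8 ± 0.429). Among neighbours in that order the ranges of CDK4 and CCND1, of CDK1 and CDK6, and of CCNE1 and CCNE2 overlapped, and the other neighbours did not. After 48 h of 5-FU CDK6 had moved from 5th to 8th in scramble cells (16 ± 0.417 FPKM, n = 2) and from 4th to 8th in shATF4 cells (12.9 ± 0.969, n = 2), below CCNA2. CDK2 moved from 7th to 4th in scramble cells (43.9 ± 1.14 FPKM) and to 5th in shATF4 cells (34.2 ± 1.63). Some shATF4 ranks were not clear of their neighbours. Untreated, the range of CDK6 overlapped those of CDK1 and CCND1, and at 48 h that of CDK2 overlapped that of CDK4.

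CCND1 (ENSG00000110092, chromosome 11, 69641087 to 69654474, plus strand) encodes cyclin D1, the D cyclin that answers to growth factor and Wnt signals. In scramble cells its level was 297.3, 319.9 and 302.5 CPM untreated, 254.5, 232.6 and 253 at 24 h, and 335.2 and 316.6 at 48 h. In shATF4 cells it was 222.6, 226.3 and 213.3 untreated, 206.6, 197 and 159 at 24 h, and 191.4 and 181.9 at 48 h. Every shATF4 library lay below every scramble library, with no overlap between the lines in any condition. In scramble cells CCND1 fell by 0.31 ± 0.08 (log2 change ± SE, edgeR quasi-likelihood test with Benjamini-Hochberg adjustment, adjusted p = 0.00263) at 24 h and at 48 h stood 0.09 ± 0.09 above untreated, which did not pass the test (adjusted p = 0.396). In shATF4 cells it fell by 0.24 ± 0.08 and 0.24 ± 0.09 at the same times (adjusted p = 0.0191 and 0.0235). Both shATF4 calls were lost when single libraries were left out, at 24 h without shATF4 untreated 1 (adjusted p = 0.0524), untreated 2 (0.0668) or 24 h 3 (0.0939), and at 48 h without shATF4 untreated 1 (0.0528), untreated 2 (0.0667) or 48 h 2 (0.137). Scaling by total counts in place of TMM ended the calls in scramble at 24 h and in shATF4 at 24 h and turned the 48 h shATF4 value to 0.08.

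CCND3 (ENSG00000112576, chromosome 6, 41934933 to 42050357, minus strand) encodes cyclin D3, the other D cyclin with substantial expression here. It measured 108.5, 103 and 97.9 CPM in untreated scramble libraries, 174.3, 187.2 and 174.1 at 24 h, and 173.5 and 180.8 at 48 h. In shATF4 cells the values were 88.5, 94.3 and 103.8 untreated, 175.2, 174.2 and 148.2 at 24 h, and 172.4 and 187.7 at 48 h. Treated and untreated libraries did not overlap in either line, while the lines overlapped in each condition. CCND3 rose by 0.79 ± 0.08 (1.73-fold, adjusted p = 6.22e-08) at 24 h and 0.78 ± 0.09 (1.72-fold, adjusted p = 9.55e-08) at 48 h in scramble cells, and in shATF4 cells 1.74-fold and 1.89-fold (adjusted p = 6.71e-08 and 1.2e-08). CCND1 and CCND3 thus moved in opposite directions at 24 h in both lines.

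CCND2, the third D cyclin and a low transcript here, had 0 to 10 counts in each scramble library. It had 17 to 24 counts in untreated and 24 h shATF4 libraries and 52 and 58 at 48 h, or 1.26 ± 0.152, 1.34 ± 0.0824 and 3.01 ± 0.243 CPM. Its log2 difference between the lines was 2.59 ± 0.49 untreated, 2.45 ± 0.45 at 24 h and 2.76 ± 0.45 at 48 h (adjusted p = 0.00335, 0.000751 and 0.000379). These fitted values rest on few counts in the scramble line and depend on the prior count of the fit. CCND2 was therefore higher in the line in which CCND1 was lower, at levels far under those of CCND1.

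CDK4 (ENSG00000135446, chromosome 12, 57747727 to 57756013, minus strand) is the G1 kinase that D cyclins activate. Scramble libraries held 209.8, 205.7 and 194.9 CPM untreated, 173.1, 191.8 and 175.9 at 24 h, and 120.4 and 121.6 at 48 h. The shATF4 libraries held 175.8, 191 and 191.2 untreated, 166.3, 195.5 and 212.7 at 24 h, and 110.2 and 118.6 at 48 h. The 48 h libraries lay below all others in both lines, whereas at 24 h the shATF4 libraries spanned both sides of the untreated ones. At 24 h the scramble value of -0.18 ± 0.08 did not pass the test (adjusted p = 0.0745), although it did without shATF4 24 h 1 (0.0321) or shATF4 24 h 3 (0.0262) and with the replicate number as a replicate block (0.0461). Those libraries enter through the shared estimate of spread. In shATF4 cells the 24 h value was 0.04 ± 0.08. By 48 h CDK4 fell 1.68-fold in scramble and 1.63-fold in shATF4 cells (log2 changes -0.75 ± 0.09 and -0.70 ± 0.09, adjusted p = 3.19e-07 and 9.15e-07).

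CDK6 (ENSG00000105810, chromosome 7, 92604921 to 92836594, minus strand), the second kinase of the D cyclins, had the largest fall of the 10 at 48 h. Its level was 596.9, 570.8 and 636.1 CPM in untreated scramble libraries, 498.9, 457.5 and 510.4 at 24 h, and 193.2 and 200.2 at 48 h. In shATF4 libraries it was 620.7, 568.6 and 542.9 untreated, 579.5, 477.8 and 379.2 at 24 h, and 167.6 and 150.3 at 48 h. The 48 h values were far under the rest, and at 24 h the shATF4 libraries overlapped the untreated ones. CDK6 fell by 1.61 ± 0.12 (3.06-fold, adjusted p = 4.09e-10) in scramble and by 1.86 ± 0.12 (3.63-fold, adjusted p = 7.9e-11) in shATF4 cells at 48 h. The 24 h calls were small and fragile. The scramble fall of 0.30 ± 0.10 (adjusted p = 0.0224) was lost without scramble untreated 3 (0.085), 24 h 1 (0.055) or 24 h 2 (0.114), and the shATF4 fall of 0.27 ± 0.10 (adjusted p = 0.0369) without shATF4 untreated 1 (0.15), untreated 2 (0.0682), 24 h 2 (0.0781) or 24 h 3 (0.187). Scaling by total counts ended both 24 h calls as well (adjusted p = 0.559 and 0.231).

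CCNE1 (ENSG00000105173, chromosome 19, 29811898 to 29824308, plus strand) encodes cyclin E1, the G1/S partner of CDK2, and had the largest rise of the 10 in 3 of the 4 comparisons, CCNE2 having it in shATF4 cells at 24 h. It stood at 7.83, 9.96 and 10.9 CPM in untreated scramble libraries, 27.7, 26.2 and 28 at 24 h, and 27.6 and 25 at 48 h. In shATF4 libraries it stood at 9.97, 7.95 and 9.52 untreated, 19, 20.6 and 28.1 at 24 h, and 28.8 and 23.7 at 48 h. All treated libraries exceeded all untreated ones, and the highest 24 h shATF4 value belonged to the library that stood apart. CCNE1 rose by 1.51 ± 0.14 (2.85-fold, adjusted p = 4.54e-08) at 24 h and 1.46 ± 0.16 (2.75-fold, adjusted p = 8.1e-08) at 48 h in scramble cells. In shATF4 cells it rose by 1.30 ± 0.15 (2.47-fold, adjusted p = 4.73e-07) and 1.52 ± 0.16 (2.87-fold, adjusted p = 5.44e-08).

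CCNE2 (ENSG00000175305, chromosome 8, 94879770 to 94896678, minus strand) encodes cyclin E2, the second cyclin E. Its level was 12.6, 10.5 and 14.4 CPM in untreated scramble libraries, 27.4, 31.5 and 27.5 at 24 h, and 26.9 and 27.4 at 48 h. In shATF4 libraries it was 11.3, 11.6 and 13.1 untreated, 29.4, 30 and 34.2 at 24 h, and 22.6 and 21.7 at 48 h. Here too treated and untreated libraries were fully apart, and within shATF4 cells the 48 h libraries lay between the untreated and the 24 h ones. CCNE2 rose 2.30-fold at 24 h and 2.17-fold at 48 h in scramble cells (log2 changes 1.20 ± 0.11 and 1.12 ± 0.12, adjusted p = 2.79e-08 and 9.17e-08), and 2.60-fold and 1.85-fold in shATF4 cells (1.38 ± 0.11 and 0.89 ± 0.12, adjusted p = 4.84e-09 and 3.17e-06). CCNE2 overlaps INTS8 and NDUFAF6 on the opposite strand, which had 11539 and 6022 counts over the 16 libraries against 5739 for CCNE2. The strand setting of the counting is not known here, and without strand the reads of these neighbours cannot be told apart from those of CCNE2 where the genes overlap.

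CDK2 (ENSG00000123374, chromosome 12, 55966769 to 55972784, plus strand) is the kinase that cyclins E and A activate. It measured 113.6, 106.8 and 111.6 CPM in untreated scramble libraries, 157.2, 165.2 and 160 at 24 h, and 174.1 and 167.6 at 48 h. In shATF4 libraries it measured 103.7, 98 and 99.1 untreated, 129.5, 140 and 149.5 at 24 h, and 129.7 and 138.4 at 48 h. Treated libraries were above untreated ones in both lines, and the shATF4 libraries were below the scramble libraries in all 3 conditions. CDK2 rose by 0.54 ± 0.07 (1.45-fold, adjusted p = 1.12e-06) and 0.63 ± 0.07 (1.54-fold, adjusted p = 2e-07) in scramble cells at 24 and 48 h, and by 0.48 ± 0.07 (1.39-fold, adjusted p = 5.56e-06) and 0.42 ± 0.07 (1.34-fold, adjusted p = 4.55e-05) in shATF4 cells. The kinase thus rose less than either E cyclin in fold.

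CCNA2 (ENSG00000145386, chromosome 4, 121816444 to 121823933, minus strand) encodes cyclin A2, which serves CDK2 in S phase and CDK1 in G2. Scramble libraries had 96.6, 98.5 and 99.3 CPM untreated, 83, 76.4 and 81.2 at 24 h, and 61.8 and 64.3 at 48 h. The shATF4 libraries had 75.7, 80 and 76.3 untreated, 74.2, 77.3 and 77.9 at 24 h, and 60.9 and 57.2 at 48 h. The untreated shATF4 libraries already lay below all untreated scramble libraries, and in shATF4 cells the 24 h and untreated values overlapped. In scramble cells CCNA2 fell by 0.29 ± 0.06 at 24 h (adjusted p = 0.000835) and by 0.64 ± 0.07 at 48 h (1.56-fold, adjusted p = 1.74e-07). In shATF4 cells the 24 h change was -0.02 ± 0.06 (adjusted p = 0.869), and at 48 h CCNA2 fell by 0.39 ± 0.07 (1.31-fold, adjusted p = 0.000101). Scaling by total counts ended the scramble call at 24 h (-0.08, adjusted p = 0.348) and the shATF4 call at 48 h (-0.07, adjusted p = 0.415). EXOSC9 overlaps CCNA2 on the opposite strand, with 8216 counts over the 16 libraries against 19674.

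CCNB1 (ENSG00000134057, chromosome 5, 69167010 to 69178245, plus strand) encodes cyclin B1, the mitotic cyclin. Its level was 362.1, 323.5 and 373.8 CPM in untreated scramble libraries, 204.6, 209.7 and 211.7 at 24 h, and 234.3 and 227.6 at 48 h. In shATF4 libraries it was 361.6, 343.3 and 328.5 untreated, 188.3, 196.4 and 243.5 at 24 h, and 267.7 and 256.5 at 48 h. Treated libraries were below untreated ones throughout. CCNB1 fell by 0.76 ± 0.08 (1.69-fold, adjusted p = 2.11e-07) at 24 h and 0.61 ± 0.09 (1.53-fold, adjusted p = 6.94e-06) at 48 h in scramble cells, and by 0.72 ± 0.08 (1.65-fold, adjusted p = 4.65e-07) and 0.39 ± 0.09 (1.31-fold, adjusted p = 0.000863) in shATF4 cells. Scaling by total counts ended the last of these calls (log2 change -0.075, adjusted p = 0.462). In bulk RNA fewer cells in G2 or mitosis and less CCNB1 RNA per cell cannot be told apart, and the same holds for the other 9 transcripts.

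CDK1 (ENSG00000170312, chromosome 10, 60778331 to 60794852, plus strand), the kinase of cyclin B1, did not follow its cyclin down. It stood at 207.4, 184.5 and 225.3 CPM in untreated scramble libraries, 225.4, 198.7 and 213 at 24 h, and 214.1 and 203.5 at 48 h. In shATF4 libraries it stood at 196.7, 193.9 and 180.9 untreated, 191.5, 179.5 and 198.8 at 24 h, and 256.7 and 224.7 at 48 h. Only the 48 h shATF4 libraries were clear of their untreated group. The changes in scramble cells were 0.05 ± 0.08 and 0.02 ± 0.09, and that of shATF4 cells at 24 h was 0.00 in size, none past the test. At 48 h in shATF4 cells CDK1 rose by 0.34 ± 0.09 (1.26-fold, adjusted p = 0.00204), a call lost without shATF4 48 h 1 (adjusted p = 0.0834).

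Promoter windows show where some of these genes hold a match to a few fixed sequences of letters. RefSeq windows of 250 bases before to 50 after the start site (GRCh38.p14) were matched for 7 of the 10 genes, CCND3, CCNE1, CCNA2, CCNB1, CDK1, CDK4 and CDK6. Both strands were searched for the CHR element (TTTGAA or TTCGAA), which cell cycle genes of G2 and M carry for the DREAM and MuvB complexes, the CCAAT box (CCAAT), the E2F site (TTTCCCGC, TTTGGCGC, TTTCGCGC or TTTGCCGC), the cyclic AMP element (TGACGTCA) and the ATF4 composite element (TGATGCAA). The stretches below hold the matches before the start site in the windows of CCNA2 and CCNB1 and in the downstream of both CDK1 windows, genes whose messages parted ways under 5-FU, with the matches in capitals, each read along the gene's strand.
CCNA2, chr4:121823935-121823964, minus strand: TGACGTCAaggccgcgagcgctttcATTGG
CCNB1, chr5:69167051-69167080, plus strand: gaccggcagccgCCAATgggaagggagtga
CCNB1, chr5:69167083-69167112, plus strand: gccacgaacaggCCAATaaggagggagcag
CDK1, chr10:60778339-60778368, plus strand: tttcctctttcTTTCGCGCtctagccaccc
CDK1, chr10:60778393-60778422, plus strand: ggctctgATTGGctgcTTTGAAagtctacg
CDK1, chr10:60778420-60778449, plus strand: acgggctacccgATTGGtgaatccggggcc
CDK1, chr10:60778453-60778477, plus strand: tagcgcggtgagTTTGAAactgctc
In these stretches CCNA2 has a cyclic AMP element and a CCAAT box read on the opposite strand (ATTGG), CCNB1 has a pair of CCAAT boxes, and CDK1 has an E2F match, a pair of CCAAT boxes and a pair of CHR matches. Counted from the start site, the CCNA2 element lies at -81 to -74 and its CCAAT box at -56 to -52, the CCNB1 boxes at -87 to -83 and -55 to -51, and in CDK1 the E2F match at -128 to -121, the CCAAT boxes at -78 to -74 and -46 to -42 and the CHR matches at -69 to -64 and -13 to -8. That CDK1 window holds another CHR match (TTCAAA) after the start site, at 10 to 15, and the upstream CDK1 window holds a CHR match and a CCAAT box of its own at -161 to -156 and -150 to -146, which are not printed. In the deposited annotation CCNB1 and CDK1 begin upstream of the stretches shown, so there these lie within the gene. The CCND3 windows held CCAAT boxes only, and the windows of CCNE1, CDK4 and CDK6 held no match to any of these letters. Among 35116 windows of this kind 34.6% held a CCAAT box, 16.4% a CHR match, 3.31% an E2F match, 1.85% the cyclic AMP element and 0.866% the ATF4 composite element, which no window of these 7 genes held. A match describes the letters and not a bound factor, and its absence says only that they are not in this window. Other spellings of these elements were not searched. A window without a CHR match here, such as that of CCNA2 or CCNB1, may therefore still hold a CHR element. Any relation of these letters to the changes under 5-FU was not tested.

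**Figure D2:**
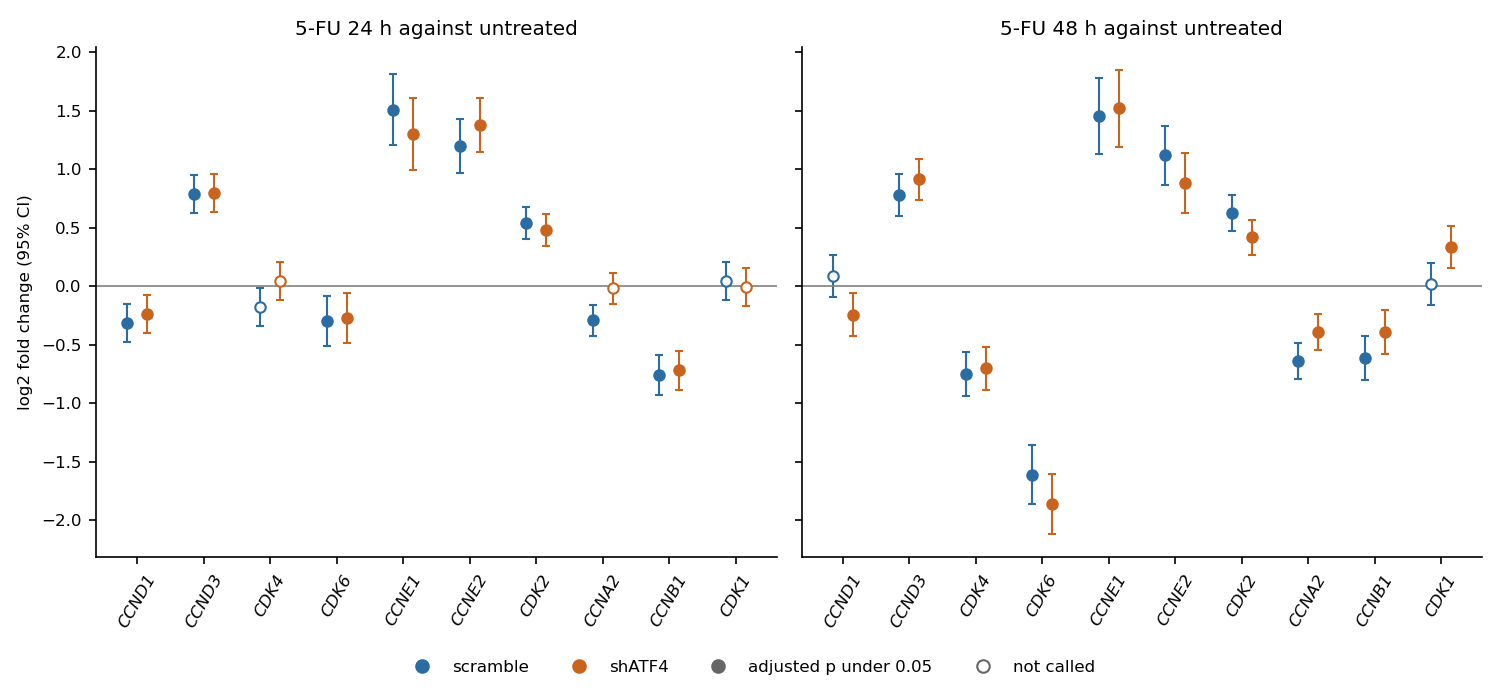
Log2 change of each of the 10 transcripts after 24 and 48 h of 5-FU against untreated cells of the same line, with 95% confidence intervals from the edgeR fit as bars. Filled points passed an adjusted p of 0.05 and open points did not. CCNE1, CCNE2, CCND3 and CDK2 lie above 0 in all 4 comparisons, CCNB1 lies below 0 in all 4, and CDK6 reaches -1.61 and -1.86 at 48 h.

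From 24 to 48 h of 5-FU CDK6, CDK4 and CCNA2 fell in both lines, and CCND1 rose in scramble cells. In scramble cells 4 of 10 were called between the times against 38.3% of all genes, and in shATF4 cells 6 of 10 against 48.2%. CDK6 fell by 1.31 ± 0.12 in scramble and by 1.59 ± 0.12 in shATF4 cells (2.49-fold and 3.01-fold, adjusted p = 4.57e-08 and 2.57e-09). CDK4 fell 1.49-fold and 1.67-fold (adjusted p = 3.4e-05 and 9.8e-07), and CCNA2 fell by 0.35 and 0.37 on the log2 scale (adjusted p = 0.000719 and 0.000242), where the shATF4 call ended under scaling by total counts (adjusted p = 0.0768). CCND1 rose 1.32-fold in scramble cells (0.40 ± 0.09, adjusted p = 0.00098), with a value of -0.01 in shATF4 cells (adjusted p = 0.961). In shATF4 cells CCNE2 fell 1.41-fold (adjusted p = 0.00156), CCNB1 rose 1.25-fold (adjusted p = 0.00534) and CDK1 rose by 0.34 (adjusted p = 0.00253). The CDK1 call was lost without shATF4 48 h 1 (adjusted p = 0.0753), that of CCNB1 when only the groups compared were fitted (0.0547), and CCNE1 was called higher at 48 h in shATF4 cells without shATF4 24 h 3 (0.0124).

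The lines differed most in CCND1. Untreated, 2 of 10 were called, both lower in shATF4 cells, against 2.92% of all genes called and 1.84% called lower. CCND1 was 1.39-fold lower (-0.47 ± 0.08, adjusted p = 0.00105) and CCNA2 1.27-fold lower (-0.35 ± 0.06, adjusted p = 0.00287). At 24 h CCND1 was 1.32-fold lower (-0.40 ± 0.08, adjusted p = 0.00144) and CDK2 1.15-fold lower (-0.20 ± 0.07, adjusted p = 0.0313), 2 of 10 where 20.4% of all genes were called and 9.89% called lower, so the number called is that of the background. At 48 h CCND1 was 1.75-fold lower (-0.80 ± 0.10, adjusted p = 1.44e-05) and CDK2 1.28-fold lower (-0.35 ± 0.08, adjusted p = 0.0068), 2 of 10 against 9.45% called and 5.53% called lower. The CCND1 call held at all 3 times without each library in turn.

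The CCNA2 difference in untreated cells was called in every alternative run, but calls on other transcripts changed with single libraries. CDK2 at 24 h was no longer called without scramble 24 h 2 (adjusted p = 0.0713), scramble 24 h 3 (0.0591), shATF4 24 h 1 (0.0706) or shATF4 24 h 2 (0.073), and at 48 h without scramble 48 h 1 (0.0948) or shATF4 48 h 1 (0.0932). CCNE1 at 24 h was -0.27 and not called (adjusted p = 0.152), and without shATF4 24 h 3 it was -0.47 and called (0.00859). CDK6 at 48 h was -0.31 (adjusted p = 0.144), and was called without shATF4 24 h 3 (0.0162). With both libraries that stood apart left out, CDK1 at 24 h (adjusted p = 0.035) and CDK6 (0.00738), CCNB1 (0.0301) and CDK1 (0.0473) at 48 h were called as well.

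**Figure D3:**
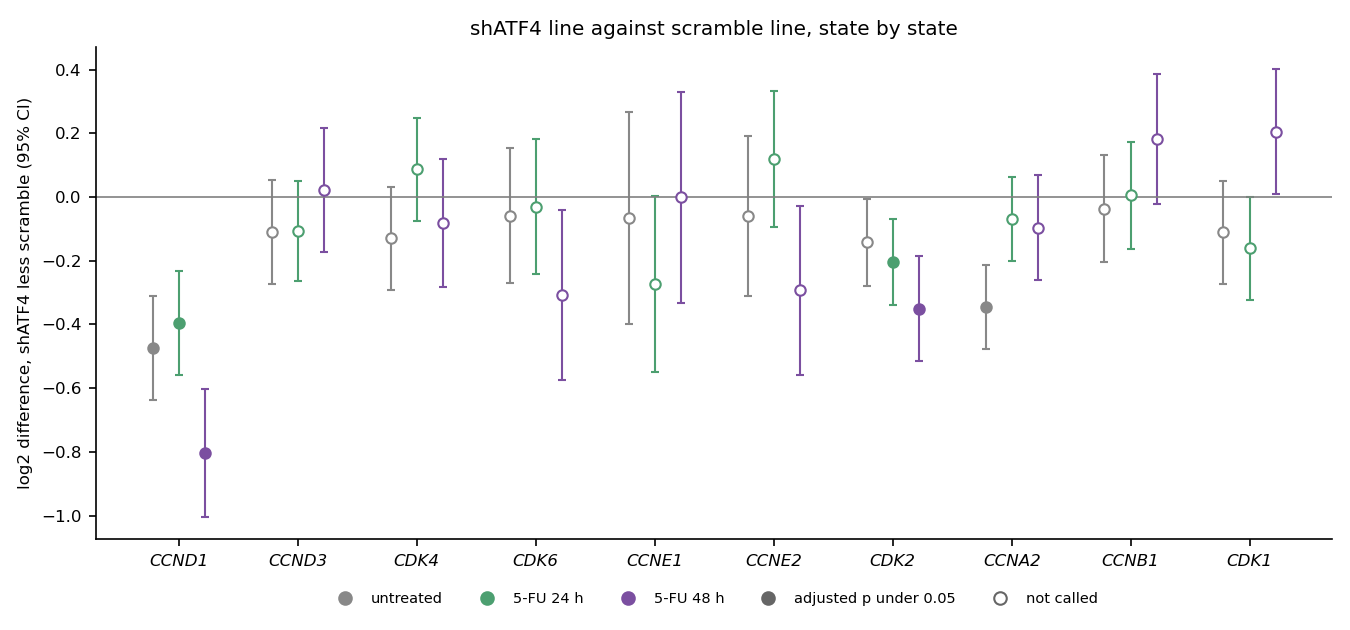
Log2 difference of shATF4 against scramble cells for each of the 10 transcripts, untreated and at 24 and 48 h of 5-FU, with 95% confidence intervals from the edgeR fit as bars. Filled points passed an adjusted p of 0.05 and open points did not. CCND1 is called at all 3 times and lies lowest at 48 h, at -0.80, CCNA2 is called untreated only, and CDK2 is called at 24 and 48 h.

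Whether the response to 5-FU itself differed between the lines was tested by an interaction term. In edgeR 0 of the 10 passed at 24 h, with 1 gene at an unadjusted p under 0.05 and 2.13% of all genes called, and 0 passed at 48 h, with 3 genes at an unadjusted p under 0.05 and 2.74% of all genes called. At that unadjusted level stood 18.6% and 15.6% of all genes, and DESeq2 called 0 of the 10 at either time. The gene at 24 h was CCNA2 (0.28 ± 0.09, adjusted p = 0.105). At 48 h they were CCND1 (-0.33 ± 0.12, 95% interval -0.587 to -0.073, adjusted p = 0.178), CCNA2 (0.25 ± 0.10, 0.224) and CDK1 (0.32 ± 0.12, 0.197). Without shATF4 24 h 3 the 48 h interaction of CCND1 was called at the same -0.33 (adjusted p = 0.0225), and without both libraries that stood apart those of CCND1 (0.00701), CCNB1 (0.0298) and CDK1 (0.0134) were. The call on CCND1, which regained its untreated level at 48 h in scramble but not in shATF4 cells, thus depended on which libraries were kept.

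Ratios within a library, taken per length from FPKM, show the exchange between paralogs and partners and do not depend on how libraries were scaled. CDK6 relative to CDK4 was 0.765 ± 0.069 (SD, n = 3) in untreated scramble cells, 0.704 ± 0.076 at 24 h and 0.42 ± 0.0071 (n = 2) at 48 h, and in shATF4 cells 0.805 ± 0.094, 0.664 ± 0.22 and 0.36 ± 0.047. The 48 h ratios were below those of all other libraries. CCND3 relative to CCND1 went from 0.281 ± 0.02 untreated to 0.604 ± 0.057 at 24 h and 0.454 ± 0.032 at 48 h in scramble cells. In shATF4 cells it went from 0.361 ± 0.039 to 0.739 ± 0.035 and 0.804 ± 0.077, higher than in scramble cells in each condition. CCNB1 relative to CCNA2 was 3.94 ± 0.3, 2.85 ± 0.15 and 4 ± 0.19 in scramble cells and 4.88 ± 0.3, 2.99 ± 0.37 and 4.86 ± 0.071 in shATF4 cells, low at 24 h and near its untreated level at 48 h in both. CDK2 relative to CDK1 was 0.546 ± 0.043, 0.767 ± 0.068 and 0.826 ± 0.0078 in scramble cells, and 0.532 ± 0.022, 0.743 ± 0.054 and 0.566 ± 0.079 in shATF4 cells. CCNE1 relative to CCNE2 was 1.33 ± 0.28, 1.65 ± 0.18 and 1.67 ± 0.14 in scramble cells and 1.32 ± 0.18, 1.23 ± 0.16 and 2.04 ± 0.22 in shATF4 cells. No test was run on the ratios.

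**Figure D4:**
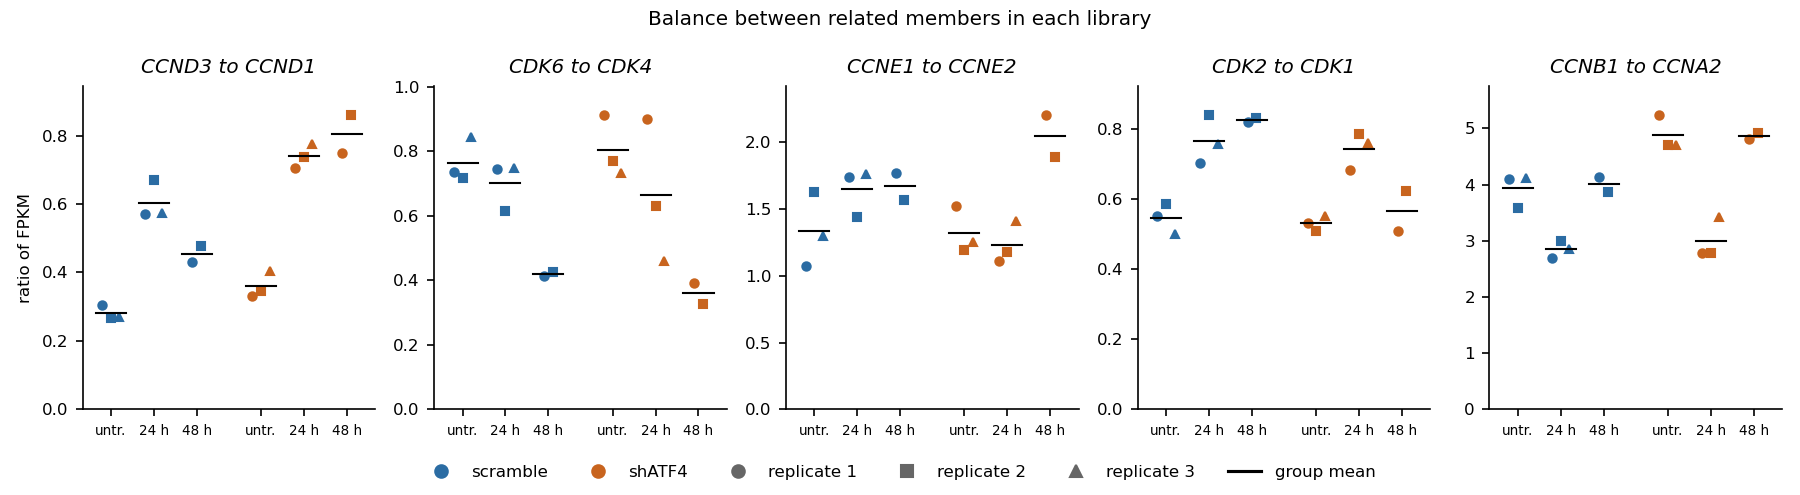
Ratio of the authors' FPKM values of paralogs or partners in every library, on axes from 0, with points for libraries and short lines for group means. CDK6 to CDK4 falls to a mean of 0.42 in scramble and 0.36 in shATF4 cells at 48 h, and CCND3 to CCND1 rises to 0.604 and 0.739 at 24 h.

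Among genes for direct inhibitors of the complexes, CDKN1A and CDKN2B rose with 5-FU in both lines. CDKN1A, which encodes p21, was 14.88-fold higher at 24 h and 37.38-fold higher at 48 h in scramble cells (log2 3.90 ± 0.20 and 5.22 ± 0.20, adjusted p = 5.38e-12 and 1.24e-14), and 9.721-fold and 26.42-fold higher in shATF4 cells. These folds rest on 11 to 31 counts in untreated scramble and 19 to 30 in untreated shATF4 libraries. At 48 h the means were 50.2 CPM in scramble and 47.4 in shATF4 cells. The interaction of line and 5-FU was not called for CDKN1A at 24 or 48 h (adjusted p = 0.313 and 0.511). CDKN2B, which encodes the CDK4 and CDK6 inhibitor p15, rose by 1.59, 1.98, 1.37 and 1.55 in the same 4 comparisons, and differed between shATF4 and scramble cells by -0.49 untreated, -0.71 at 24 h and -0.93 at 48 h (adjusted p = 0.0091, 2.91e-05 and 1.44e-05). CDKN1B, which encodes p27, fell by 0.36 and 0.24 in scramble cells, where the second turns to 0.12 under scaling by total counts, and by 0.31 at 24 h in shATF4 cells. Of the 8 inhibitor genes, scramble cells had 4 higher and 2 lower at 24 h and 4 higher and 1 lower at 48 h, and shATF4 cells had 5 higher and 2 lower, then 4 higher and 0 lower. Of all genes 44% and 60.7% were called in scramble and 44.4% and 58.3% in shATF4 cells. The 48 h numbers thus lie near the share of all genes. By total counts 7 inhibitor genes in scramble and 8 in shATF4 cells were higher at 48 h, and 0 lower. Of 9 genes for the tyrosine phosphorylation of CDKs and their CKS subunits, at each time in scramble cells 2 rose and 3 fell. That is not far from the 44% and 60.7% of all genes called, and by total counts 6 rose and 1 fell at 48 h. WEE1, the kinase that holds CDK1 inactive, fell at 24 h by 0.86 ± 0.08 in scramble and 0.47 ± 0.08 in shATF4 cells (adjusted p = 3.26e-08 and 6.71e-05). CDC25A, a phosphatase that activates CDKs, rose by 0.50 and 0.67 at 24 h, and CKS2 fell by 0.91 and 1.05 in scramble cells.

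Downstream of the G1 complexes, scramble cells had 6 of 20 genes for RB, E2F and DREAM factors higher and 4 lower at 24 h, and 8 higher and 5 lower at 48 h, near the 44% and 60.7% of all genes called. E2F2 rose by 1.25, 1.77, 1.32 and 1.45 in scramble at 24 and 48 h and in shATF4 at 24 and 48 h. E2F8 rose by 1.01 and 1.71 in scramble cells and by 1.30 at 48 h in shATF4 cells, while E2F4 fell by 0.51 and 0.65 in scramble cells. E2F1, an activator that transcribes the E cyclins, rose by 0.95 at 48 h in both lines. RB1 was lower in shATF4 than in scramble cells under 5-FU, with log2 differences of -0.42 and -0.45 at 24 and 48 h (adjusted p = 0.00388 and 0.0154). Untreated, the difference was -0.27 and not called (adjusted p = 0.165). The interaction of line and 5-FU was not called for RB1 at 24 or 48 h (adjusted p = 0.593 and 0.614). Of 23 G1/S transcripts, scramble cells had 8 higher and 8 lower at 24 h and 3 higher and 13 lower at 48 h, and shATF4 cells had 10 higher and 6 lower, then 4 higher and 12 lower. RRM2, a ribonucleotide reductase subunit, rose by 0.77 and 0.88 in scramble cells, whereas POLA1, the catalytic subunit of DNA polymerase alpha, fell by 1.01 at 48 h and the helicase subunit MCM7 by 0.75. The rises of CCNE1 and CCNE2 at 48 h in scramble cells stood beside a list whose median log2 change was -0.19 under TMM scaling. By total counts 11 genes of that list were higher and 3 lower at 48 h in each line.

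The G2/M list moved with CCNB1. Of 24 genes, 18 fell and 0 rose at 24 h in each line, with median log2 changes of -0.54 in scramble and -0.53 in shATF4 cells. Of all genes 22.2% were called lower at 24 h in scramble and 21.2% in shATF4 cells. At 48 h 16 fell and 2 rose in scramble cells (median -0.43), and 14 fell and 4 rose in shATF4 cells (median -0.27). At that time 60.7% of all genes were called in scramble cells, 30% lower, and 58.3% in shATF4 cells, 28.7% lower. PLK1, a mitotic kinase, fell by 1.40, 1.30, 1.34 and 1.17 in the 4 comparisons, and AURKA, another, by 1.04 and 0.89 at 48 h in scramble and shATF4 cells. NEK2 and KIF23 rose at 48 h, by 0.53 and 0.47 in scramble cells. Between 24 and 48 h 8 G2/M genes rose and 2 fell in scramble cells and 15 rose and 0 fell in shATF4 cells. Of all genes 38.3% and 48.2% were called between these times, and the number called in scramble cells lies near that share. The list's counts at 48 h depended on scaling, being 7 higher and 7 lower in scramble and 8 higher and 6 lower in shATF4 cells by total counts.

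Among genes that destroy cyclins or feed cyclin D, CDC20 fell at both times and SKP2 and CTNNB1 at 48 h in both lines. Of 17 destruction genes, scramble cells had 10 lower and 1 higher at 24 h and 8 lower and 0 higher at 48 h, and shATF4 cells had 4 lower and 3 higher, then 13 lower and 1 higher. The 7 of 17 called in shATF4 cells at 24 h lie near the 44.4% of all genes, and the 8 of 17 in scramble cells at 48 h below the 60.7%. The falls depended on scaling. By total counts 3 were lower and 3 higher in scramble cells at 24 h, and 5 lower and 4 higher in shATF4 cells at 48 h. CDC20, which directs the anaphase-promoting complex to cyclin B, fell by 1.22, 1.02, 1.21 and 0.88, and SKP2, whose ligase targets p27, fell by 1.51 and 1.27 at 48 h. Of 16 cyclin D regulators 5 were higher and 4 lower at 24 h, and 6 higher and 5 lower at 48 h, in scramble cells, not far from the 44% and 60.7% of all genes called. CTNNB1, which encodes beta-catenin, fell by 1.09 and 0.94 at 48 h, and the Wnt target AXIN2 fell by 0.71 and 0.62 at 24 and 48 h in scramble cells. LEF1 of the same list went the other way. It rose by 1.27 at 24 h in scramble cells (adjusted p = 0.000198). Its scramble means were low, at 1.96 CPM untreated, 4.79 at 24 h and 8.81 at 48 h. Of the 19 other cell cycle cyclins and CDKs 16 were tested, with 6 higher and 6 lower at 24 h and 5 higher and 7 lower at 48 h in scramble cells. CCNG2, a cyclin associated with cell cycle arrest, rose by 2.12 and 2.02 at 48 h and CDK18 by 2.11 and 2.14, while CCNB2, the paralog of CCNB1, fell by 0.70 and 0.61 at 24 h. Of 17 cyclins and CDKs of transcription 6 were lower and 1 higher at 24 h, and 10 lower and 1 higher at 48 h, in scramble cells, among the lower CDK8 (-0.55) and CDK13 (-0.57) at 48 h. The numbers called lie near the 44% and 60.7% of all genes called, where 22.2% and 30% of all genes were lower. By total counts 48 h in scramble cells gave 6 higher and 1 lower for the transcription list, 7 higher and 5 lower for the destruction list, and 11 higher and 3 lower for the G1/S list.

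**Figure D5:**
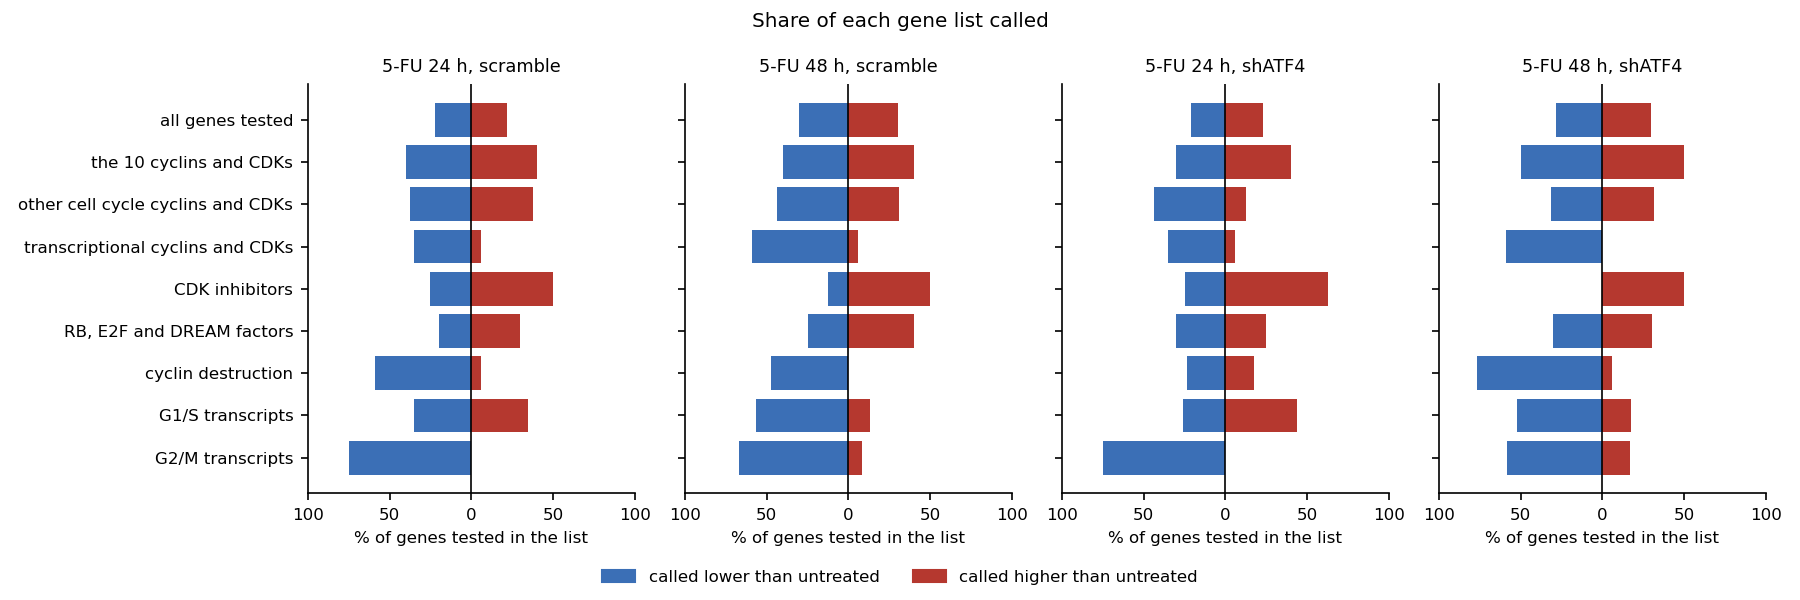
Percentage of the tested genes of each list called higher (bars to the right of 0) and lower (bars to the left) under 5-FU, by line and time, under TMM scaling, with all tested genes in the top row. The G2/M list has 18 lower and 0 higher genes at 24 h in each line, and the list of CDK inhibitors has more higher than lower genes in all 4 comparisons.

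Other measures of the libraries moved with these values. The summed level of 12 colorectal epithelial markers was 11100 to 12500 CPM in untreated scramble libraries, 8950 to 9530 at 24 h and 7400 to 7580 at 48 h, and in shATF4 libraries 11200 to 11800, 10200 to 10900 and 6570 to 7040. Most of that sum was KRT8, KRT18 and KRT19. Their scramble means were 6710, 2360 and 1370 CPM untreated and 3870, 1550 and 1020 at 48 h. EPCAM and VIL1 were lower at 48 h as well. In contrast CDH1 (190 to 375 CPM), ELF3, KRT20, CDX2 and CDH17 had higher means at 48 h than untreated in scramble cells. The part of the summed level in the changes of the 10 transcripts was not tested. Leukocyte markers summed to 3 to 4.02 CPM untreated and 29.8 to 32.5 at 48 h in scramble cells, nearly all of it LYZ (means of 3.25 and 30.6 CPM), and fibroblast markers to 35.5 to 44.5 and 53.8 to 56, with COL3A1 at 0 in all libraries. Scaling by total counts shifted the median log2 change of all genes by 0.21 and 0.36 in scramble cells at 24 and 48 h and by 0.10 and 0.32 in shATF4 cells, and moved the percentage of higher genes among those called from 49.5% to 78.4%, 50.5% to 76.5%, 52.3% to 66.1% and 50.7% to 76.3%. The split of the 10 transcripts then became 5 higher and 1 lower, 6 and 4, 4 and 1, and 5 and 2. After subtracting that shift none of the 196 called values checked under 4 other scalings turned direction. The subtraction largely undoes the change of scaling, so this outcome says nothing on whether the directions depend on it.

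Opposite-strand neighbours also touched other members, with counts that could mix if strand was not used. LTO1 (12522 counts over the 16 libraries) overlaps CCND1 (62376), MARCH9 (5222) and TSPAN31 (3714) overlap CDK4 (43516), and PMEL (2844) overlaps CDK2 (34692). CCND3 and CDK6 overlap only genes with 0 to 60 counts, and CCNE1, CCNB1 and CDK1 overlap no annotated gene in the table. Of 70 log2 fold changes in the authors' deposited table, for the 10 genes, 68 had the sign computed here and 66 fell on the same side of an adjusted p of 0.05. The exceptions in that deposited table were CDK6 between the lines at 48 h (called there, adjusted p = 0.00359), CDK2 between the lines at 24 h (0.0924), and CCND1 (0.0826) and CDK6 (0.107) in shATF4 cells at 24 h.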

How the data were processed

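Polyadenylated RNA of 16 SW620 libraries was sequenced. The submitters' processing notes name featureCounts 1.5.0-p3 and the build GRCh38 (hg38), and whole-number gene counts were deposited for 58735 genes. The aligner, annotation release and strand setting were not given in the sources used here. The authors' FPKM values, deposited beside the counts, equal counts per length times a constant for each library whose origin is not stated, and were used for levels between genes and for ratios. The authors' log2 fold changes and adjusted p-values were deposited for 7 comparisons.

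Counts were tested with edgeR 4.0.16 (R 4.3.3) by the quasi-likelihood test over 6 group terms with all 16 libraries, TMM scaling and filterByExpr, which kept 17309 genes (99.9% of counts), and Benjamini-Hochberg adjustment over all of them. The residual degrees of freedom were 10 and the common biological coefficient of variation 0.0847. The threshold for a call was an adjusted p under 0.05, in 11 comparisons, and levels are CPM of the TMM-scaled library size. Totals of 14571611 to 17824188 counts gave CCNE1, among the scarcest members, 107 to 525 counts. Samples were grouped by title. Named genes were all 10 members, ATF4, CDKN1A, CDKN1B, RB1, E2F1, CCND2 and WEE1, up to 2 called genes with the smallest p in each direction from each list and comparison, and the 2 nearest profiles of each member. The members and lists were chosen with earlier results of these data known. Alternatives were other scalings, no filter, a replicate block, a fit of only the groups compared, DESeq2 1.42.0, and leaving out each library or both that stood apart. The fit was tested on simulated data.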

Additional observations from a re-analysis of the deposited data

How the results depend on the processing

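Over all alternatives 2568 of 2640 values of the 10 transcripts kept their side of the threshold, 40 lost a call, 31 gained one and 1 called value turned direction. Values called in neither run were counted as kept whatever their sign. Some of these changed sign, such as CCND1 between 24 and 48 h in shATF4 cells (-0.113 to 0.207). By total counts CCND1 at 48 h in shATF4 cells turned to 0.077, and CDKN1B at 48 h turned to 0.12 in scramble and 0.23 in shATF4 cells. The 2 of 10 called between the lines at 24 h became 1 with no filter, 1 with only the groups compared and 4 without both libraries that stood apart, and ran from 1 to 3 without each library. At 48 h the 2 became 5 without both libraries, and ran from 1 to 3. The 0 of 10 in the 48 h interaction became 1 with only the groups compared and 3 without both libraries, and ran from 0 to 1. The cause was not tested. Over all genes the 24 h interaction gave 369 calls and 559 by total counts, 798 with no filter, 173 with only the groups compared, 647 without both libraries and 696 by DESeq2, from 65 to 1188 without each library. The 48 h interaction gave 475, and 1204 without both libraries (136 to 991). Between the lines, 506 genes untreated became 891 without both libraries (277 to 774), 3533 at 24 h became 2189 with only the groups compared (2067 to 3885), and 1636 at 48 h became 2748 with only the groups compared and 3021 without both libraries (600 to 2463). Between 24 and 48 h in scramble cells the 6621 ran from 4363 to 7485. With the replicate number as a replicate block, 9 of 10 in place of 8 were called in scramble cells at 24 h, CDK4 being the addition, the other counts of the 10 were as before, and the 24 h interaction gave 644 calls over all genes. The labels do not say what same-numbered libraries share. After centring on group means, their 36 correlations ran from -0.403 to 0.425, 19 of them above 0.1. Between scramble 24 h and scramble 48 h libraries they were 0.15 to 0.224, against -0.224 to 0.121 for other pairs. Between untreated scramble and untreated shATF4 libraries they were -0.403 to 0.028, against -0.42 to 0.436. Whether a number marks a batch was not tested. Depth limits CCNE1 and CCNE2 most, and 2 libraries a group limit 48 h.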

Other observations

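The genes whose profiles over the 16 libraries were nearest to each of the 10, by the root mean square difference of centred log2 CPM among 10564 protein-coding genes, were mostly not cell cycle genes. RAP1A (0.053) and RHEB (0.079) were nearest to CDK1, RRP7A (0.062) and STOML2 (0.063) to CDK4, PCBP2 (0.072) and UBE2G2 (0.085) to CCNB1, LRRFIP1 (0.075) and KPNB1 (0.088) to CCNA2, TCF19 (0.08) and SEC14L2 (0.09) to CCND3, and SEC14L1 (0.092) and PJA1 (0.092) to CDK2. The other 4 had more distant neighbours, ASPH (0.131) and DOCK5 (0.154) for CCND1, ITPR2 (0.164) and SNTB1 (0.172) for CDK6, INPP1 (0.166) and GALNT5 (0.168) for CCNE2, and ITPR1 (0.174) and IFIT3 (0.181) for CCNE1. Among the 10 themselves CCNA2 and CDK4 were nearest to each other (0.164), then CCND3 and CDK2 (0.204), and CCNE1 and CDK6 were farthest apart (1.272). All libraries share these genes' depth and the 6 conditions, so the likeness is a description.

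PIM1, a kinase listed among the cyclin D regulators, was low untreated (0.505 CPM in scramble, 0.584 in shATF4 cells) and at 24 h (1.25 and 0.956 CPM), and reached 23.8 and 15 CPM at 48 h. EGFR, the receptor upstream of cyclin D1, rose from 0.354 to 2.05 and 11.9 CPM in scramble cells and from 0.0919 to 1.23 and 4.93 CPM in shATF4 cells, and was lower in shATF4 cells at 48 h (log2 difference -1.28 ± 0.27, adjusted p = 0.0037).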
